A study of Mus musculus with 12 samples.

Results

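Pseudogene-only elements are sites of transcription initiation that lie over or near the annotated start of a pseudogene. All lie away from the start of every other kind of gene. They were taken from dREG peaks of leptonema/zygonema, pachynema and diplonema, which were joined into elements wherever they overlapped or touched. An element was counted here when its edge was under 1000 bp from a transcription start site (TSS) of a GENCODE M21 pseudogene and at least 1000 bp from TSSs of all other gene types. The rule was applied to the 19 autosomes. It gave 1160 of 63116 autosomal elements, and the 3 lists joined into 65172 elements on all chromosomes. The 1160 elements lay near 897 annotated pseudogenes. Of them, 1132 were near 1 pseudogene and 28 were near 2 or more.

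Nascent transcription was mapped by leChRO-seq, in which engaged RNA polymerase is allowed to run on in isolated chromatin with a biotin-labelled nucleotide and the nascent RNA is sequenced. All 12 libraries came from prophase I spermatocytes of adult male mice of WT (wild-type) genotype, and the labels name no treatment. The study used mice on a C57Bl/6J or DBA/2J background, and its methods name DBA/2J for the mice of a separate drug experiment. The background behind these libraries is not stated separately there. There were 4 libraries of leptonema and zygonema together, 4 of pachynema and 4 of diplonema, from cells enriched by STAPUT (sedimentation at unit gravity), which leaves other spermatogenic cells in each fraction. The 4 libraries of a substage were pooled before peaks were called, and what was analysed was 1 list per substage. The leptonema/zygonema list held 71107 peaks, the pachynema list 68352 and the diplonema list 38603. The lists carry no read counts, so they do not give the depth behind a peak. They also carry no spread between replicates, so nothing was tested between substages. Intervals given in brackets are Wilson 95% intervals and cover the counting of elements only.

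Pseudogenes are copies of genes that no longer encode the ancestral protein. Processed pseudogenes are retrocopies, made when an mRNA is reverse transcribed and inserted elsewhere in the genome, so they usually arrive without introns and without the promoter of the parent gene. Unprocessed pseudogenes arise by duplication of genomic DNA and can carry a copied promoter, and unitary pseudogenes are former genes that lost their function in place. The testis is known for transcribing many retrocopies, and some autosomal retrocopies of X-linked genes are active in spermatocytes, where the X chromosome is silenced.

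Sequence at the strongest of these elements is shown first, because the values below turn on where initiation lay relative to the copied sequence. The 8 windows are from 8 of the 12 elements with the highest dREG score rank within a list, taken in order of rank. AC126041.1, which ranked above 1700049L16Rik and 1700073E17Rik, was passed over and its sequence is not shown. Each holds the centre of the highest-ranked peak and 100 bases on either side of it, from the mouse genome assembly GRCm38 (mm10), written 5′ to 3′ on the strand of the pseudogene. Capitals mark the letters of a promoter motif found by search on both strands, so a motif can appear as its reverse complement. The motifs found were the CCAAT box, the MYB letters GCAGTT or CAGTTG and the RFX letters GTTGCCA.
Gm6677 (chr3:78006661-78006861, plus strand): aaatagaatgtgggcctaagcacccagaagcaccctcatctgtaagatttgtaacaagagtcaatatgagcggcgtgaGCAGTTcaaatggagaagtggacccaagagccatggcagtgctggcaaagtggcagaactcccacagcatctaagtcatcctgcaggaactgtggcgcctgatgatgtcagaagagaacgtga
Olfr271-ps1 (chr4:52935931-52936131, minus strand): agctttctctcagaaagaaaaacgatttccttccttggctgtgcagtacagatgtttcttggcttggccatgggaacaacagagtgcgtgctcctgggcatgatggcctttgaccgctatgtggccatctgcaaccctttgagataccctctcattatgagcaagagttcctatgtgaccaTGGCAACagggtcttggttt
Gm18368 (chr14:78703471-78703671, plus strand): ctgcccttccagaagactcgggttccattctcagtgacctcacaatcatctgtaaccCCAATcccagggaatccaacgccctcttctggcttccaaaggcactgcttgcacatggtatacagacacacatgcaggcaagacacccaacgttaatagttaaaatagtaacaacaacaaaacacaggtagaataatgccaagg
Gm48108 (chr10:88670631-88670831, minus strand): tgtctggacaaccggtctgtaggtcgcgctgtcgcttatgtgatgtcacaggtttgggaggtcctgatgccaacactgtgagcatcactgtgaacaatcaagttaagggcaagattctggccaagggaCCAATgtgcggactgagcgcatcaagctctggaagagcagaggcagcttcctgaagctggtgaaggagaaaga
Gm12134 (chr11:40429771-40429971, plus strand): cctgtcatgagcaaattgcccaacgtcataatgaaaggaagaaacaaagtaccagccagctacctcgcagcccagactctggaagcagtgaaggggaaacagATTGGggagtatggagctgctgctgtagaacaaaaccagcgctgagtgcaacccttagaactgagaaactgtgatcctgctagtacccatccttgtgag
Ndufa11b (chr16:22053521-22053721, plus strand): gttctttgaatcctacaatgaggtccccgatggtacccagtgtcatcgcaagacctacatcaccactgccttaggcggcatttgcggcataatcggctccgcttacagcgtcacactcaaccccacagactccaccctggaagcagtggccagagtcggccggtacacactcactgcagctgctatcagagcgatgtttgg
1700049L16Rik (chr10:71980721-71980921, minus strand): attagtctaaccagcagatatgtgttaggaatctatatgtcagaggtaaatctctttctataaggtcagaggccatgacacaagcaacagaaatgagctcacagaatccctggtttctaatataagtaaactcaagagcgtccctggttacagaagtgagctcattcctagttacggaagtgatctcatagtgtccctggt
1700073E17Rik (chr6:145387391-145387591, plus strand): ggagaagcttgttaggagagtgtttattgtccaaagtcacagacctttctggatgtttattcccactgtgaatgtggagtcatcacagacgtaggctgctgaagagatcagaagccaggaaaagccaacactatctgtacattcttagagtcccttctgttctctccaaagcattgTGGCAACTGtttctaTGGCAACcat
The window centre lay inside the annotated pseudogene at Gm6677, Olfr271-ps1, Gm48108, Gm12134 and Ndufa11b. At Gm18368, 1700049L16Rik and 1700073E17Rik it lay before the annotated start, in sequence next to the copy. None of the motif letters searched was present in the windows of Ndufa11b and 1700049L16Rik. Ndufa11b had the highest GC content of the 8 windows, 55.7%, with 10 CpG dinucleotides, and 1700049L16Rik had the lowest, 41.3%, with 2.

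The dREG score measures how strongly run-on reads around a site resemble initiation, and it is not scaled between lists. Levels are therefore given as the deposited score with its percentile among all peaks of the same list, where 100 is the strongest peak. The lists differ in length, so a percentile is a position within a list and not a level that can be set against another list. Gm6677, a processed pseudogene whose closest protein-coding transcript was that of Ube2v1 (91.2% identity), a ubiquitin-conjugating enzyme variant, had the highest rank. Its element at chr3:78006501-78007540 had a leptonema/zygonema score of 1.34 (percentile 98.3), a pachynema score of 1.42 (percentile 99.9) and a diplonema score of 0.82 (percentile 77.6). It was thus among the strongest peaks of both earlier lists. The element lay 302115 bp from the nearest TSS of another gene type. Where a pseudogene is called a copy of a gene here, that gene had the closest protein-coding transcript, and descent was not shown.

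Olfr271-ps1, a polymorphic olfactory receptor pseudogene, scored 1.46 in leptonema/zygonema (percentile 99.9), then 1.4 in pachynema (percentile 99.8) and 0.955 in diplonema (percentile 86.6). Gm18368, a copy most like Cdk4, the cyclin-dependent kinase of early cell cycle, lay in an intron of Dgkh on the opposite strand and scored 1.44, 1.37 and 1.13 in the same order. Gm48108, most like the large-subunit ribosomal protein gene Rpl21 at 85.1% identity, ranked at percentile 96.4, 98.7 and 99.7 in the 3 lists in meiotic order. Gm12134, most like Mrps7 of the mitochondrial ribosome over 68.3% of its length, ranked at percentile 93.2, 93.3 and 99.6. These were among the strongest peaks in all 3 lists. A RefSeq long non-coding RNA also starts inside the Gm12134 element, so that start is a pseudogene start only by GENCODE.

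Ndufa11b, a copy of the respiratory complex I subunit gene Ndufa11 (94.8% identity), scored 1.36 in both earlier lists and 0.75 in diplonema, and its element covered the annotated start. 1700049L16Rik scored 1.29, 1.35 and 1.06, 1700073E17Rik 1.39, 1.29 and 1.12, and Gm5316 1.38, 1.32 and 1.05, with elements over the annotated start in each case. AC126041.1 on chromosome 18 had percentile 99.5 in the leptonema/zygonema list and 56 in the shorter diplonema list. Gm3531, a near-identical copy of Btf3 (99.2% identity), a gene of nascent-chain and transcription factor function, ranked at percentile 98.9, 93.3 and 87.5, and its element lay 992 bp from the start, just within the limit.

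Gm39197 was the exception among the 12 highest-ranked elements. This copy of the ribosomal protein gene Rpl23a (96.7% identity) scored 0.338 in leptonema/zygonema (percentile 11.2) but 1.12 in pachynema (percentile 89.5) and 1.25 in diplonema (percentile 99.2). It was a weak peak in the first list and one of the strongest in the last. Its element did not cover the start but lay 277 bp from it, and the peak centre was 897 bp before it. All of its 32-base words occurred once in the genome.

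**Figure D1:**
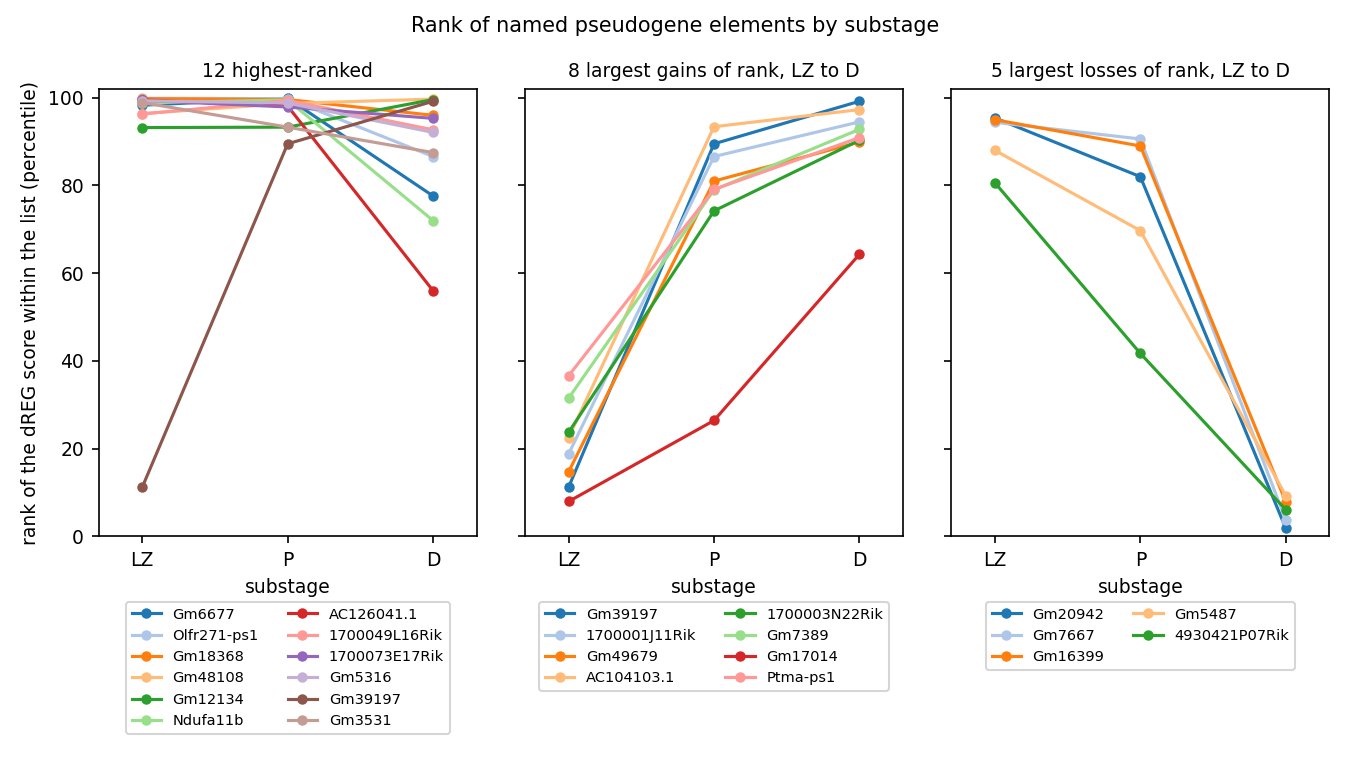
Percentile of the dREG score within each list (y axis) by substage, 1 line per element, where P and D stand for pachynema and diplonema and LZ for the pooled first fraction. There are no replicates. Left, the 12 highest-ranked pseudogene-only elements, of which all but Gm39197 started at or above percentile 93.2. The other panels hold the 8 elements with the largest gain and the 5 with the largest loss of rank from LZ to D among elements called in both, picked for their values.

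Some of the largest changes of rank between the lists are named here, picked after their values were seen. AC104103.1, most like the phosphomannomutase gene Pmm1, went from percentile 22.5 in leptonema/zygonema to 93.4 in pachynema and 97.3 in diplonema, and a RefSeq long non-coding RNA starts in the same element. 1700001J11Rik, a transcribed copy of Rnf19a, went from 18.8 to 86.6 and 94.5, with its peak centre 4 bp before the annotated start. 1700003N22Rik and Gm7389, copies of Tmem189 and of the tRNA exporter gene Xpot with 95.6% identity each, ended at percentile 90.3 and 92.8 in diplonema. In the opposite direction, Gm20942 and Gm7667, both most like the ribosomal protein gene Rpl13, went from percentile 95.4 to 1.82 and from 94.4 to 3.7. Gm5487, a copy of the replicative helicase subunit gene Mcm7 (97.7% identity), went from 88 to 9.24. Only 54.4% of the 32-base words of the Gm5487 element were unique.

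Among the 329 pseudogene-only elements called in both leptonema/zygonema and diplonema, the diplonema percentile minus the leptonema/zygonema percentile had a median of -9.03 (quartiles -26.4 and 3.38). For all autosomal elements called in both the median difference was -10.8, and for distal elements, which lie 1000 bp or more from every TSS, it was -21.7. Gains of 20 points or more were seen for 43 of the 329 (13.1%), against 7.44% of all autosomal elements and 5.96% of protein-coding promoter elements, which lie under 1000 bp from a protein-coding TSS. Losses of that size were seen for 107 (32.5%), against 36.9% of all autosomal elements and 25.7% of protein-coding promoter elements.

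These differences also hold the unequal length of the lists. In an alternative chosen after seeing the data, each list was reduced to as many of its highest-scoring peaks as the diplonema list holds, and percentiles were taken again. Both peaks were then kept at 256 pseudogene-only elements, and the median difference was -0.379. It was -1.26 for all autosomal elements, -13.5 for distal elements and 4.18 for protein-coding promoter elements. Gains of 20 points or more were seen for 54 (21.1%), against 17% of all autosomal and 20.4% of protein-coding promoter elements, so the share was then close to that of promoters. Losses of that size were seen for 51 (19.9%), against 25% and 13.9%. Of the 43 elements with a gain in the full lists, 32 had no leptonema/zygonema peak left, among them Gm39197, AC104103.1, 1700001J11Rik, 1700003N22Rik and Gm7389. The same held for 983 of 1504 autosomal elements with such a gain, for 489 of 667 distal and 367 of 638 protein-coding promoter elements. Gm20942 and Gm7667 still went from percentile 91.4 to 1.82 and from 89.7 to 3.7, and Gm5487 from 77.9 to 9.24.

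Pseudogene-only elements, each of which has a peak in at least 1 list, were called about as often in pachynema as in leptonema/zygonema, and less often in diplonema, whose list is the shortest. A leptonema/zygonema peak was present in 849 of the 1160 elements (73.2%, 70.6 to 75.7), against 78.2% of all autosomal elements. A pachynema peak was present in 867 (74.7%, 72.2 to 77.2), against 72.1%. A diplonema peak was present in 421 (36.3%, 33.6 to 39.1), against 39%. All 3 substages had a peak at 323 elements (27.8%, 25.3 to 30.5), against 31.4% of all autosomal elements. The shares for leptonema/zygonema and for all 3 substages were thus below the background, the pachynema share lay just above it, and in diplonema the background was inside the interval. These positions depended on the limits used. With peaks scoring at least 0.5 the pachynema share was 74.9%, below its background of 75.7%. With a distance of under 500 bp from the start, the diplonema share of 40.4% and the share of 32.1% for all 3 substages lay above the backgrounds of 39% and 31.4%.

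By pattern of calls, 269 elements (23.2%) had peaks in both earlier substages but none in diplonema, against a background of 21.8%. Peaks in leptonema/zygonema only were seen at 251 (21.6%, 19.4 to 24.1, against 24.3%). Peaks in pachynema only were seen at 219 (18.9%, 16.7 to 21.2), and here the background of 14.8% lay below the interval. Where the element covered a pseudogene start the share was 12.5% (9.82 to 15.8), an interval that holds the background. Where it lay beside a start the share was 23.3% (20.3 to 26.6), and among distal elements it was 17%. Diplonema only was seen at 36 (3.1%, against 3.04%) and pachynema and diplonema only at 56 (4.83%, 3.74 to 6.22, against 4%). The pattern of leptonema/zygonema and diplonema without pachynema was seen at 6 elements (0.517%, against 0.566%). The lists differ in length. With each reduced to its strongest peaks, as many as the shortest list holds, the pseudogene-only shares were 63.4%, 67.9% and 62.2% for the substages in meiotic order, and those of all elements 72.7%, 68.9% and 65.4%. The pachynema share was then below its background rather than above it.

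**Figure D2:**
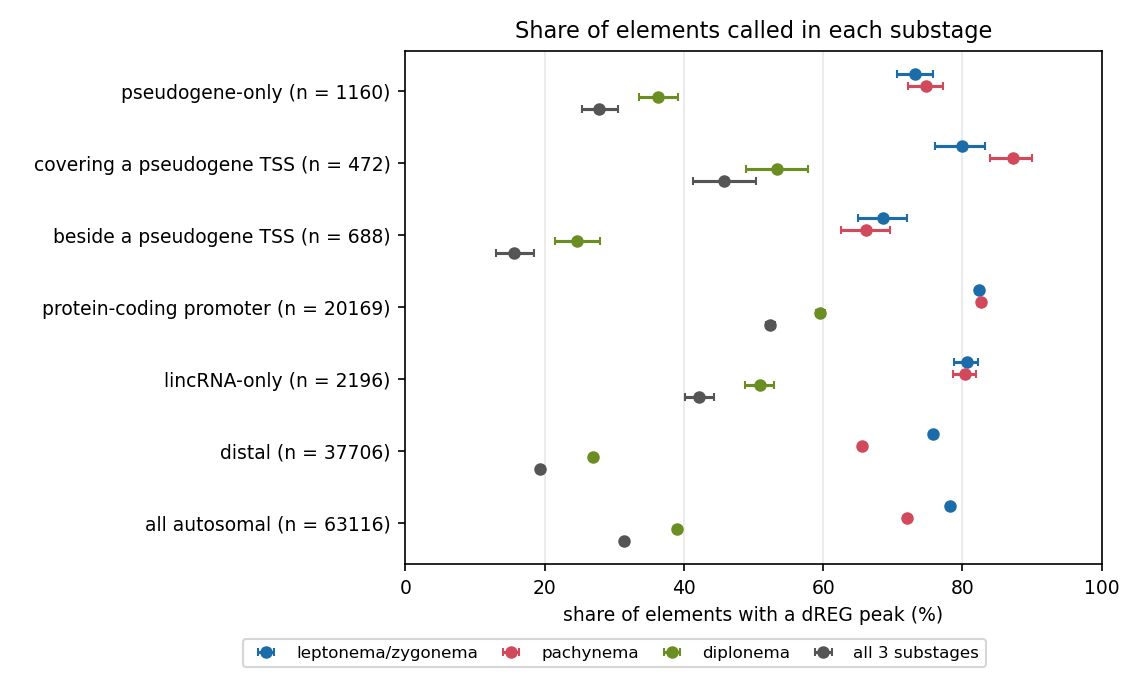
Share of elements with a dREG peak (x axis, %) in leptonema/zygonema, pachynema, diplonema and all 3 substages, for pseudogene-only elements, their subsets over and beside a pseudogene start, and 4 comparison sets; bars are Wilson 95% intervals. Elements covering a pseudogene start sit at 87.3% in pachynema, to the right of those beside one at 66.1%.

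Elements seen in 1 substage only ranked lower than those above. The strongest in leptonema/zygonema only were at Gm44690 (score 0.944, percentile 77.2), a partial copy of the purine synthesis gene Paics, at Gm4275 (0.863) and at Gm48101 (0.845), a partial copy of the sterol synthesis gene Fdps. Of these, Gm4275 is a unitary pseudogene that RefSeq starts 345 bp away as an mRNA. The strongest in pachynema only were Gm8197 (0.794), Gm8973 (0.791), a copy of Rpl36, and Gm18688 (0.791), a copy of the ubiquitin ligase gene Cop1. Gm18688 was the most GC-rich of these, at 72.1% around the peak centre. In diplonema only, Gm7368 (0.533), Gm8353 (0.524), a copy of the ribosomal protein gene Rps15, and Atp10d (0.467), a polymorphic phospholipid-transporting ATPase pseudogene, led the list. The pattern is that of the element and not of the pseudogene. Another element covered an annotated start of Atp10d and was called in all 3 lists with scores of 1.21, 1.12 and 0.789, while the diplonema-only element lay 318 bp from a start. Gm7368 likewise had an element over its start called in pachynema (0.337) and diplonema (0.77), and Gm44690 another called in pachynema (0.417). In pachynema and diplonema only, Gm6723, a copy of the X-linked gene Lage3 (95.2% identity), scored 0.944 and 0.877. Gm19457, a copy of the ubiquitin-conjugating enzyme gene Ube2d3, scored 0.702 and 0.868. Catspere1, named for a subunit of the sperm calcium channel CatSper, scored 0.829 and 0.859 over its annotated start. A RefSeq transcript of Catspere1 that is not a pseudogene also starts inside that element.

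The distance rule gathers 2 kinds of element. In 472 (40.7%, 37.9 to 43.5) the element covered a pseudogene start, and in 688 it lay beside one. Elements over a start were called more often in every substage. The leptonema/zygonema list called 377 of them (79.9%, 76 to 83.2), the pachynema list 412 (87.3%, 84 to 90) and the diplonema list 252 (53.4%, 48.9 to 57.8). Those beside a start were called at 68.6%, 66.1% and 24.6%, and all autosomal elements at 78.2%, 72.1% and 39%. The intervals of the subsets did not overlap in any substage. Protein-coding promoter elements, which include those beside a start as well as those over one, were called at 82.4%, 82.7% and 59.6%. The shares of all pseudogene-only elements were below these in each substage. Peaks in more lists can widen an element, so the split into elements over and beside a start is not independent of the calls. Elements over a start were joined from a median of 3 peaks, against 1 for those beside one. They were also wider, with a median of 760 bp against 480 bp, and a wide element covers a given point more easily. Their highest score ranked at a median percentile of 65.9, against 32.8 for those beside a start, 46 for all pseudogene-only elements, 49.7 for all autosomal elements, 69.1 for protein-coding promoter elements and 40.9 for distal elements.

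At the limit of the rule, the members farthest from a start were at Gm8973 and Cyp4b1-ps1, 997 bp away, and at Gm49626, 996 bp away, with highest percentiles of 69.9, 43 and 37.7. The nearest elements just outside lay 1000 bp from Gm47363, 1005 bp from Gm17214 and 1009 bp from Gm17826, with percentiles of 33.6, 65 and 71.8. The values on both sides of the limit overlapped.

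The peak centre lay within 200 bp of the nearest pseudogene start in 346 elements (29.8%), against 50.3% of protein-coding promoter elements. For the 181 elements at pseudogenes whose GENCODE type is named transcribed the share was 49.2%, and for the other 979 it was 26.3%. The fullest 200 bp was the one just before the start, with 205 elements (17.7%). By place, 557 centres (48%) lay before the start, 482 (41.6%, 38.7 to 44.4) inside the pseudogene and 121 (10.4%) beyond its end.

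**Figure D3:**
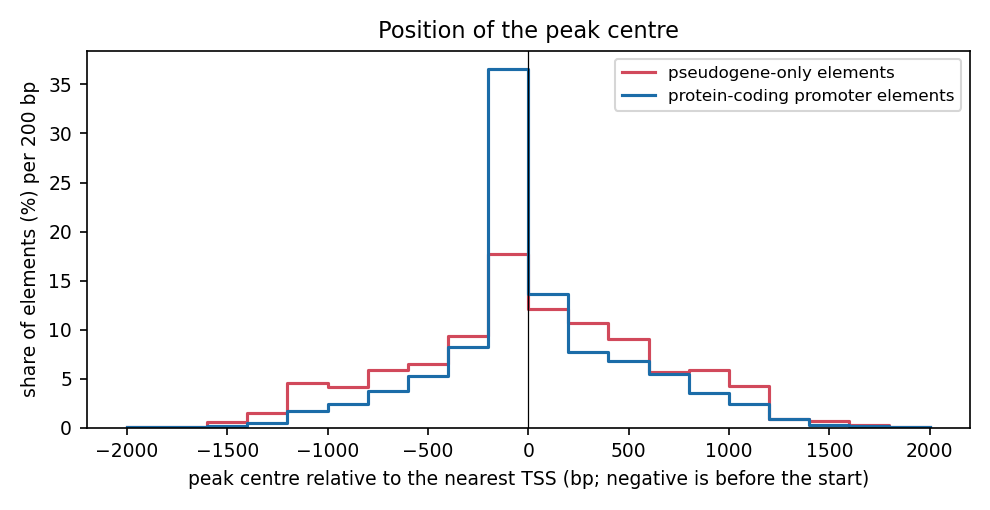
Position of the highest-ranked peak centre relative to the nearest start (x axis, bp, negative before the start) as a share of elements per 200 bp (y axis), for pseudogene-only and protein-coding promoter elements. Both lines peak next to the start, and that of the pseudogene-only elements is lower there, with 17.7% just before the start and 12.1% just after.

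Starts and ends of the same pseudogenes were compared among the elements that lay away from the starts of other gene types. Over the 11594 annotated autosomal pseudogenes, 446 elements covered a gene start and 245 a gene end, and an element over a short pseudogene can count in both. For the 506 pseudogenes typed as transcribed the counts were 85 and 12. For the other 11088 they were 363 and 233. In the first 1000 bp outside the point, pseudogenes typed as transcribed had 64 elements around starts and 40 around ends. GENCODE names a type transcribed where there is evidence of a transcript, so this typing is not independent of transcription. In the same 1000 bp, pseudogenes not typed as transcribed had 617 elements around starts and 632 around ends. Around transcript starts the number of elements per ring of 1000 bp was 688 in the first ring, 424 in the second and 354 in the third, and it reached 262 in the tenth.

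**Figure D4:**
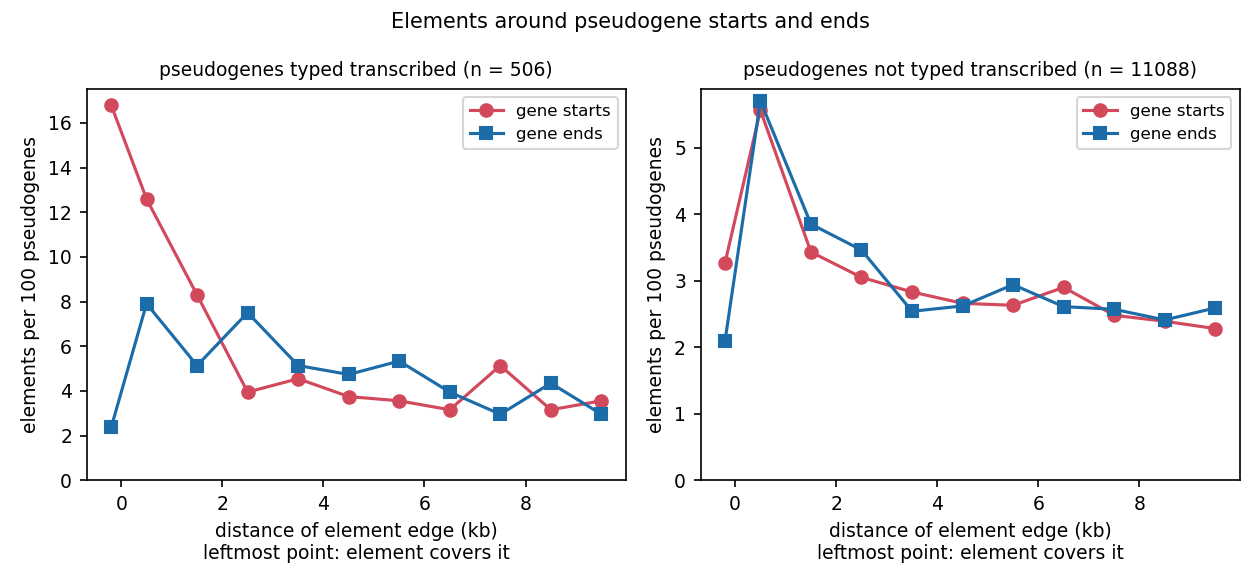
Elements per 100 pseudogenes (y axis) against the distance of the element edge from a gene start or end (x axis, kb, the leftmost point being elements that cover it), for pseudogenes typed as transcribed (left) and all others (right), on separate y scales. Left, 16.8 elements per 100 covered a start and 2.37 an end; right, 3.27 and 2.1.

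Most annotated pseudogenes had no element. The 1160 elements reached 897 of 11594 (7.74%, 7.26 to 8.24), and 1079 (9.31%) were within 1000 bp of an element of any kind. The same was true of 64.8% of protein-coding genes and 39.4% of lincRNA genes. A gene was counted where any of its transcript starts was that close, and the 11594 pseudogenes have 12320 transcript starts. The number of starts per gene was not matched between these types. By type, 667 of 8924 processed pseudogenes (7.47%) and 80 of 1789 unprocessed ones (4.47%) had a pseudogene-only element. Among transcribed processed pseudogenes it was 65 of 269 (24.2%, 19.4 to 29.6), among transcribed unprocessed ones 51 of 221 (23.1%) and among transcribed unitary ones 7 of 16 (43.8%, 23.1 to 66.8). Of the elements, 844 were linked to a processed pseudogene, 94 to an unprocessed one, 90 to a transcribed processed and 77 to a transcribed unprocessed one, and the remaining 55 fell in 5 smaller types. Peaks in all 3 substages were found at 25.6% of processed, 45.6% of transcribed processed, 44.2% of transcribed unprocessed and 17% of unprocessed elements, against 31.4% of all autosomal elements. Diplonema calls were fewest at unprocessed pseudogenes, at 20 of 94 elements (21.3%, 14.2 to 30.6), and most frequent at transcribed processed ones, at 47 of 90 (52.2%, 42 to 62.2), where 39% of all autosomal elements were called.

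Chromosomes differed in how many elements they held for their pseudogenes. Chromosome 15 held 15.3 elements per 100 annotated pseudogenes and chromosome 8 held 14.8, while chromosome 6 held 5.67 and chromosome 13 held 6.59. Chromosome 7 had the most elements, 89, and also the most annotated pseudogenes, 1198. As a share of all elements on the chromosome, pseudogene-only elements were 2.07% on chromosome 15, 1.81% on 8, 1.3% on 6 and 1.49% on 13. By that share chromosome 12 was highest, at 2.85%, and chromosome 19 lowest, at 1.26%.

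Most elements lay outside other genes. Of the 1160, 901 (77.7%, 75.2 to 80) were intergenic, 223 (19.2%) lay in introns and 36 touched an exon of another gene type. Among distal elements 51.9% were intergenic and 38.6% intronic. In the 223 intronic cases the host gene was on the strand opposite to the pseudogene in 139 (62.3%, 55.8 to 68.4) and on the same strand in 78. How annotated pseudogenes without an element lie relative to their host genes was not counted. Only 36 elements were under 2000 bp from another TSS, and 826 were over 10000 bp from one. RefSeq starts a transcript other than a pseudogene under 1000 bp from 123 of the elements (10.6%), of which 57 were nearest an mRNA and 52 a long non-coding RNA.

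By the name in its symbol, the nearest pseudogene was a ribosomal protein pseudogene for 20 elements. A pseudogene-only element lay under 1000 bp from 20 of 266 such pseudogenes (7.52%, 4.92 to 11.3), a share close to the 7.74% of all pseudogenes. Of the 20 elements, 16 had a leptonema/zygonema peak, 17 a pachynema peak and 8 a diplonema peak, where 78.2%, 72.1% and 39% of all autosomal elements did. Rpl9-ps9 led them with scores of 1.21, 1.31 and 0.908, and Rps4l, an autosomal copy of the X-linked Rps4x with 79.7% identity, scored 1, 1.05 and 1.05. Olfactory and vomeronasal receptor pseudogenes, from families that sense odours and pheromones, were the nearest for 22 elements, at 18 pseudogenes. Of 502 such pseudogenes, 23 (4.58%, 3.07 to 6.78) lay under 1000 bp from any pseudogene-only element. Besides Olfr271-ps1, the highest were Olfr443-ps1 (1.19, 1.09 and 0.773) and Vmn2r-ps54 (0.964, 0.824 and 0.627). Zinc finger pseudogenes lay under 1000 bp from such an element in 8 of 17 cases (47.1%, 26.2 to 69). Of these, Zfp389 scored 0.617, 0.822 and 0.742 over its start, and Zfp133-ps was called only in pachynema (0.635) and diplonema (0.648).

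The other named families were small. Translation factors had 1 element, at Eif3s6-ps1 (1.27, 1.32 and 0.9), and chromatin and HMG genes had 1, at Hmgb1-rs17 (1.25, 1.03 and 0.494). Chaperones had 1, at Hspe1-ps3 (1.17, 0.866 and 0.793), and glycolysis had 1, at Pgam1-ps1, called in pachynema only with a score of 0.472. Respiratory chain genes had 4 elements, 3 of them at Ndufa11b and 1 at Uqcrh-ps1, and cytoskeletal genes had 3, at Tubb4b-ps1 and Tubb2a-ps2. Most pseudogenes have no family name in their symbol, so these counts cover only named copies.

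To reach the rest, the spliced sequence of every annotated pseudogene was aligned to the protein-coding transcripts of other genes. A closest transcript aligned over at least 50% of its length was found for 768 of the 897 pseudogenes near an element. Median identity was 91.5% (quartiles 84.2 and 96.1), against 89% for all 10206 autosomal pseudogenes with such a transcript. Identity of at least 95% was found for 256 of the 768 (33.3%, 30.1 to 36.7), against 23.9% (23.1 to 24.8) of all. The share of pseudogenes with an element was higher in each higher bin of identity, from 117 of 2117 (5.53%, 4.63 to 6.58) under 80% identity to 256 of 2444 (10.5%, 9.32 to 11.8) at 95% and above. The share with an element over the start was 2.65% in the lowest bin, 2.51% in the next and 5.77% in the highest.

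**Figure D5:**
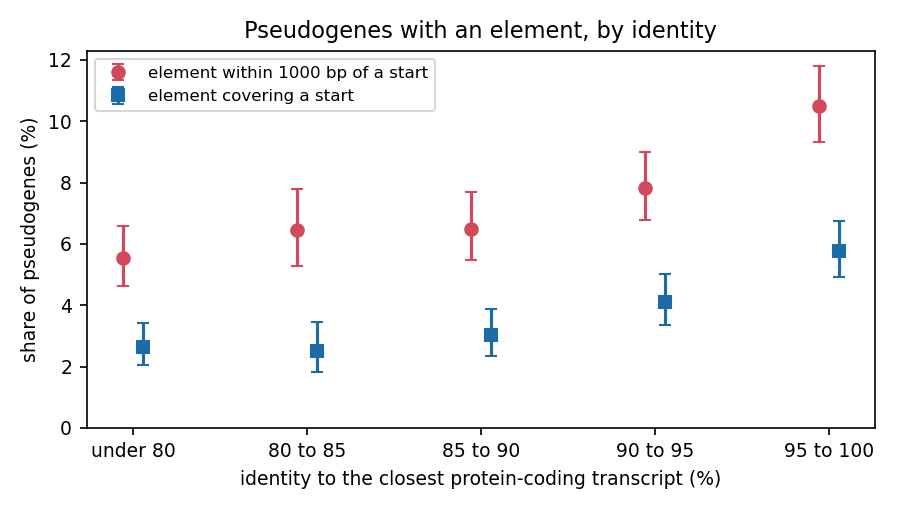
Share of annotated autosomal pseudogenes (y axis, %) with a pseudogene-only element within 1000 bp of a start (circles) or covering it (squares), by identity to the closest protein-coding transcript (x axis, %); bars are Wilson 95% intervals. The circles run from 5.53% to 10.5% and the squares from 2.65% to 5.77% between the lowest and the highest bin.

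The same bins differed in how many short words of their sequence are unique in the genome. The share of 32-base words in an element that occur once in the genome had a median of 99.6% in the lowest identity bin and 69.2% in the highest. Over all pseudogene-only elements the median was 88.4% (quartiles 64.2 and 99.5), against 100% for protein-coding promoter and distal elements and for lincRNA-only elements, whose only nearby TSSs are of lincRNA genes. Under 50% of the words were unique in 165 elements (14.2%, 12.3 to 16.4), against 4.12% of all autosomal elements. For unprocessed pseudogenes this was 32 of 94 (34%, 25.3 to 44.1). The part of reads from parent genes in these peaks was not tested.

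Calls were counted by the share of unique words. Of the 165 elements with under 50% unique words, 73.9% (66.8 to 80) had a leptonema/zygonema peak, 66.1% (58.5 to 72.8) a pachynema peak and 34.5% (27.7 to 42.1) a diplonema peak. Of the 254 elements whose words were all unique, the shares were 66.5%, 65% and 25.2%, and of all autosomal elements they were 78.2%, 72.1% and 39%. Pseudogene-only elements with 50 to 90% unique words were called at 73.4%, 80.9% and 42.1% in meiotic order. Those from 90% to under 100% were called at 78.3%, 78.6% and 37.9%. Among distal elements with under 50% unique words, 81.3% were called in the first list, 46.5% in pachynema and 16.3% in diplonema, and among distal elements whose words were all unique the shares were 71.4%, 63.7% and 23.2%. Distal elements with 50 to 90% unique words were called at 81.6%, 66.7% and 29.7%, and those from 90% to under 100% at 81.7%, 74.8% and 38.1%. At the extremes, Gm49511, Gm8325 and Gm13233 had peaks with scores of 0.487, 0.404 and 0.417 in leptonema/zygonema although none of their 32-base words is unique. Olfr271-ps1, Gm12134 and Gm39197 had the highest ranks among elements in which every word is unique.

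In the earlier substages elements were called at like rates whether or not the start of the closest gene, here called the parent although descent was not shown, was itself called. Of the 980 elements with such a gene, the parent start was called for 823 (84%) by leptonema/zygonema, for 798 (81.4%) by pachynema and for 730 (74.5%) by diplonema. In leptonema/zygonema the pseudogene element was called in 72.3% of cases with a called parent and in 72% (64.5 to 78.4) of those without. In pachynema it was 74.4% and 74.7% (67.9 to 80.5). In diplonema it was 37.8% (34.4 to 41.4) and 28.8% (23.5 to 34.7), intervals that overlapped by a narrow margin. Of all autosomal elements, 78.2%, 72.1% and 39% were called in the 3 substages in meiotic order. For 144 elements the parent start had no peak in any substage, and 36 of these (25%) were called in all 3, against 27.5% of the 836 whose parent start had a peak and 31.4% of all autosomal elements.

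The 768 pseudogenes had 534 different parents in this sense of closest transcript, and 424 of the parents had only 1. Ribosomal protein genes were the parents of 124 (16.1%, 13.7 to 18.9), against 21.6% of all pseudogenes with a parent. The 147 elements at such copies were called in leptonema/zygonema at 65.3% (57.3 to 72.5) in pachynema at 78.2% (70.9 to 84.1) and in diplonema at 36.1% (28.7 to 44.1), where the shares of all autosomal elements were 78.2%, 72.1% and 39%. Rps2 had 13 of its 134 annotated copies near an element, Gapdh, the glycolytic enzyme gene, 8 of 217, Rpl21 8 of 107 and Rpl7a 7 of 164. By contrast, Phgdh, the first enzyme gene of serine synthesis, had 10 of 21, and all 6 copies of the chromatin remodeller gene Smarca5 and all 5 of the kinase gene Tlk2 and of the phosphatase inhibitor gene Ppp1r2 lay near one. These parents were picked for their counts, and of all 10206 autosomal pseudogenes with a parent, 768 lay near an element. Median identity was 97.2% for the Smarca5, 95.8% for the Tlk2 and 97.5% for the Ppp1r2 copies. In the bin of 95% identity and above, a median of 69.2% of the words of an element were unique. Crb1 was the closest transcript for 84 annotated pseudogenes. Of these, 16 lay near an element, with a median identity of 80.3%.

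Pseudogenes closest to an X-linked gene were a small group, and 20 of the 21 were of processed types. The parent lay on the X chromosome for 29 elements, at 21 of the 768 pseudogenes (2.73%, 1.8 to 4.14), against 3.08% of all pseudogenes with a parent. A leptonema/zygonema peak was present in 24 of the 29 (82.8%, 65.5 to 92.4), a pachynema peak in 23 (79.3%, 61.6 to 90.2) and a diplonema peak in 14 (48.3%, 31.4 to 65.6). With an autosomal parent the shares were 71.8%, 74.4% and 35.1%, and over all autosomal elements they were 78.2%, 72.1% and 39%, all inside the intervals for the X-linked parents. The highest-ranked, in that order of substages, were 1700019M22Rik (1.31, 1.26 and 1.17), Gm5334 (1.24, 1.21 and 0.989) and Gm19129 (0.716, 0.944 and 1.06). Zfa-ps, a copy of the X-linked zinc finger gene Zfx with 96.5% identity, scored 1, 0.939 and 0.887, and Kif4-ps, a copy of the chromokinesin gene Kif4, scored 0.605, 0.831 and 0.623.

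In median base composition pseudogene-only elements were close to all autosomal elements. GC content over 100 bp on either side of the peak centre had a median of 49.5% (quartiles 45.3 and 54.7), against 49.8% for all autosomal, 59.2% for protein-coding promoter, 48.8% for lincRNA-only and 47.8% for distal elements. GC above 60% was found in 141 elements (12.2%, 10.4 to 14.2), against 18.9% of all autosomal, 48% of protein-coding promoter and 4.72% of distal elements. The observed-to-expected ratio of CpG dinucleotides, which is high in CpG islands, had a median of 0.288, against 0.292, 0.656 and 0.204 in that order. Elements over a pseudogene start were higher, with a median ratio of 0.391 and GC above 60% in 90 of 472 (19.1%, 15.8 to 22.9), than those beside one, with 0.237 and 7.41%. Soft-masked repeats filled a median of 12% of an element, against 11.7% in all autosomal and 14.9% in distal ones.

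Promoter motif letters were searched on both strands of the same window, and an overlap with another motif was counted for each. At least 1 of the 9 motifs was found in 658 elements (56.7%, 53.9 to 59.5), against 60.9% of all autosomal elements and 55.9% of distal ones. The GC box GGGCGG was found in 135 (11.6%, 9.92 to 13.6), against 41.1% of protein-coding promoter, 18.4% of all and 7.34% of distal elements. The ETS motif CCGGAAG was found in 3.71%, against 9.1% and 4.64% in protein-coding promoter and all elements, and the NRF1 motif GCGCATGC in 1.47% against 1.68% of all. Over a pseudogene start these were 14.6%, 5.72% and 2.54%. The CCAAT box was at 27% here and at 26.5% in all elements. TATAAA was found in 7.41% (6.04 to 9.07), against 8.88% of all, and the cAMP response element TGACGTCA in 6 elements (0.517%), against 1.38%.

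The MYB letters, of interest because A-MYB is the transcription factor of the pachytene gene program, were near the background. GCAGTT was found in 131 elements (11.3%, 9.6 to 13.2), against 10.6% of all, and CAGTTG in 141 (12.2%, 10.4 to 14.2), against 11.6%. The RFX letters GTTGCCA were found in 60 (5.17%), against 5.42%. A match of such short letters describes the sequence only.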

How the data were processed

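The 12 leChRO-seq libraries were processed by the authors. PCR duplicates were dropped with PRINSEQ lite on the basis of molecular identifiers, and cutadapt removed adapters. BWA placed the reads on mm10, to which 1 rRNA transcription unit was added, and bedtools made the tracks. The 4 libraries of each substage were then merged and dREG was run at its defaults. The study states library depth in uniquely mapped reads. Whether other reads were kept before peaks were called, and the tool versions, were not given in the sources used here. The labels give single-end reads and the study's methods paired-end reads. Each deposited list gives an interval, a dREG score, a p-value and a centre for each peak, as the authors' caller wrote them. Whether the deposited p-value is adjusted is not given in the sources used here. In 1414 of 178062 peaks the centre lay outside the peak's interval, and a centre outside its merged element was moved to the element's edge.

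Peaks of the 3 lists that overlapped or touched were merged, and distances were measured from the element's edge to transcript starts of GENCODE M21. Scores were turned into percentiles within a list. GC content and motifs were taken from GRCm38 within 100 bp on either side of the highest-ranked centre. Words of 32 bases were counted over 21 chromosomes on both strands. Spliced sequences of 11594 pseudogenes were aligned to 58758 protein-coding transcripts with blastn (dc-megablast, plus strand, e-value 1e-10), keeping the best transcript aligned over at least 50% of the pseudogene. Shares have Wilson 95% intervals, and neighbouring elements are not independent. No test was run, since each substage is 1 pooled list.

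The members and lists were chosen with earlier results of these data known. Named elements were the 12 with the highest percentile, the top 3 among those called in 1 substage only, for each substage, and in pachynema and diplonema only, up to 4 of each family by symbol, and the 3 of lowest and highest uniqueness. Some of the largest changes of rank and the parents with most copies were named after their values were seen. The tools were blastn 2.17.0 and Python 3.11.15 with numba 0.67.0, matplotlib 3.10.9, scipy 1.17.1, pandas 2.3.3 and numpy 2.4.6. On simulated data, 0 of 2364 merging and distance comparisons, 0 of 300 motif searches, 0 of 200 word counts and 0 of 50 alignments were wrong.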

Additional observations from a re-analysis of the deposited data

Results flagged for a closer look

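Elements on the sex chromosomes were outside the rule. The same distances gave 119 elements on the X chromosome, of which 106 (89.1%, 82.2 to 93.5) had a leptonema/zygonema peak, 82 (68.9%) a pachynema peak and 40 (33.6%) a diplonema peak. All 1955 X elements were called at 80.3%, 73.8% and 42.2%. On the Y chromosome the same distances gave 8 elements, of which 4 had a pachynema peak, 1 a diplonema peak and all 8 a leptonema/zygonema peak. All Y elements of any kind were called at 77.2%, 53.5% and 30.7%. No comparison of pseudogene-only elements above used the elements of these chromosomes, although calls at parent starts included the X chromosome and percentiles were taken over whole lists. There is no control sample to set them against, and differences from the autosomes were not tested.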

How the results depend on the processing

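No paired analysis was possible because the 4 libraries of a substage share 1 pooled list, which also means that leaving out a replicate could not be tried. Against all autosomal elements under the same setting, the pachynema share was below at a score of at least 0.5 (74.9% against 75.7%) and with lists of equal length (67.9% against 68.9%), and above under the other settings. The shares for diplonema and for all substages were above only under 500 bp from a start (40.4% against 39%, 32.1% against 31.4%). Peaks scoring at least 0.5 gave 665 elements, 49.8% over a start, at 5.11% of annotated pseudogenes, with a median percentile of 69.2. With a p-value of at most 0.01, 44.5% were over a start, 6.8% of pseudogenes had an element and the median percentile was 52.9. With lists of equal length there were 694 elements, called at 63.4%, 67.9% and 62.2% in meiotic order and at 35% in all substages, with 48.3% over a start, 5.16% of pseudogenes and a median percentile of 67.6. Merging peaks up to 100 bp apart gave 79% in pachynema, 40% in diplonema, 32.1% in all substages, 48.8% over a start and a median percentile of 52.9. Under 500 bp from a start, the shares were 77.2% in pachynema, 40.4% in diplonema and 32.1% in all substages, with 53.1% over a start, 6.43% of pseudogenes and a median percentile of 49.1. Distances from the element centre gave 46.7% over a start and 7.03% of pseudogenes, and leaving out RefSeq starts gave 6.94%. The share with a motif was 36.4% within 50 bp and 78.2% within 200 bp of the centre, and the median share of unique words was 78.9% with 24 bases. With lists of equal length, chosen after seeing the data for changes of rank, gains of 20 points or more were at 21.1% and losses at 19.9%, against 13.1% and 32.5% as reported. The other 55 values moved by less than their intervals or, for counts, by less than 1.5 times. Score and p-value limits keep fewer peaks by construction, and the causes of the other changes were not tested. The lists hold no read counts, so an uncalled element is not shown to be silent.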
